A study of Mus musculus with 12 samples.

Results

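Microglia of mice that overexpress ZEB1 were compared with microglia of wild type mice after transient middle cerebral artery occlusion (tMCAO), a mouse model of ischaemic stroke in which an artery of the brain is blocked for a time and then reopened. The comparison used 4 of the 12 samples of the series, the 2 labelled wild type and the 2 labelled ZEB1-overexpression after tMCAO, and was described across all genes measured. All mice were male and 8 weeks old, and the cells were enriched from brain on magnetic columns with a kit directed at CX3CR1, a chemokine receptor of microglia and other myeloid cells. The other 8 samples, of the same 2 genotypes before tMCAO and of a ZEB1 knock-down at both times, serve below only where a sentence names them. The labels do not say which promoter or cell type drives the extra ZEB1, how long after tMCAO the cells were taken, or whether the replicates came from separate animals, so the p-values below reflect the spread of these samples alone, and that spread may be technical.

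ZEB1 is a zinc-finger transcription factor known mainly as a repressor of epithelial genes. Microglia are the resident macrophages of the brain and sense damaged tissue and foreign nucleic acids. Sensors such as RIG-I lead to the production of interferons, the interferon receptors signal through STAT proteins and IRF9, and these bind interferon-stimulated response elements in the promoters of antiviral genes. In stroke, microglia, vessel cells and blood leukocytes that enter the tissue all take part in the inflammatory response.

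Levels are given as log2 of the processed signal relative to the 75th percentile of the same array, so 0 is that percentile, and levels of different genes are not comparable. Differences are overexpression minus wild type on that log2 scale, with the standard error from limma, and a gene is said to have risen or fallen where its adjusted p was under 0.05. Between 68.5% and 73.9% of the probes were well above background per array and none was saturated. The replicates correlated at 0.986 in wild type and 0.978 in overexpression, and arrays of different genotype at 0.957 to 0.964. The scanner software marked 7.49% to 21.7% of the spots of an array as uneven or as outliers, and 26.2% to 70.5% of the bright ones. Marked spots were left out of the tests, so 6107 of 11219 genes with a mean level above 0 (54.4%) could be tested, and the fit with all spots kept is given beside most gene groups where it moves the counts. On the slide, wild type took positions of row 1 and overexpression those of row 2, and these rows cannot be told apart from genotype.

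The Zeb1 probe itself lay at 0.12 and 0.41 in wild type against -0.08 and 0.56 with overexpression. The groups overlapped, and with marked spots kept the difference was -0.02 ± 0.29 (adjusted p = 0.974). Whether this probe lies in the part of the gene that was overexpressed is not stated in the labels, so it does not check the label, and "overexpression" below means the labelled genotype.

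Of 22072 genes tested, 510 differed after tMCAO (2.31%), of which 348 rose (1.58%) and 162 fell (0.734%). The difference of the called genes was at least 1.26 in size, with a median size of 1.97. Among all genes tested the median difference was -0.11 and 42.0% of genes were positive, so the called rises stood against a background that leaned slightly the other way. Of the calls, 449 rested on unmarked spots of all 4 arrays, and in 100 a group was not well above background. Those 100 were kept only because the other group was above background, so the filter is not independent of their direction. A gene symbol was at hand for 232 of the called genes, and the others are transcripts without one. When marked spots were kept, 27935 genes could be tested, 546 rose (1.95%) and 349 fell (1.25%), and 506 of the 510 calls (99.2%) were among them. The count rests on single arrays: it was 54 without wild type replicate 1, 115 without wild type replicate 2, 1079 without overexpression replicate 1 and 857 without overexpression replicate 2. It was 0 with the mean of all probes of a gene or with no filter on dim probes, where limma gave 4184 and 4123 genes with an unadjusted p under 0.05.

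**Figure D1:**
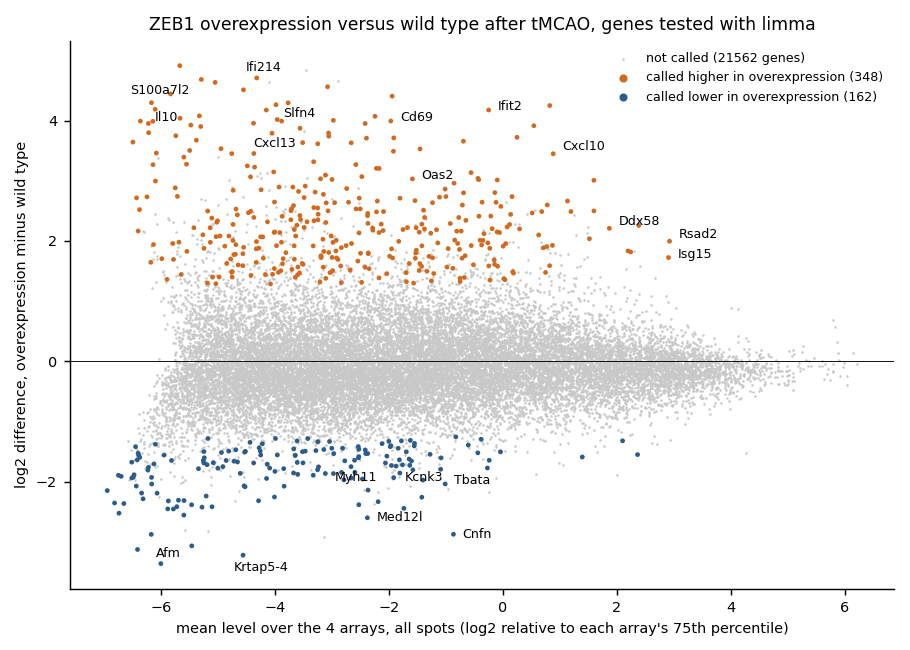
Each point is a gene tested after tMCAO, with its mean level over the 4 arrays on the x axis (log2 relative to the 75th percentile) and the difference of overexpression minus wild type on the y axis (log2). Orange points are the 348 genes called higher and blue points the 162 called lower by limma, with some of the genes of the text named. The labelled rises are mostly interferon-induced genes and reach higher differences than the labelled falls.

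Interferon-induced antiviral genes were among those that rose. In the list of antiviral effectors, proteins that block virus replication in infected cells, 9 of 21 tested members rose and none fell, with a median difference of 1.72. With marked spots kept, 17 of 30 rose and the median was 1.60, against -0.10 over all genes. On all spots, both overexpression arrays were above both wild type arrays in 28 of 30 members, an order found in 21.6% of all genes. Guanylate-binding proteins and immunity-related GTPases, which attack the compartments of intracellular microbes, showed 6 rises among 13 tested members (median 1.62), and all 13 differences were positive.

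The promoters of 4 of the genes with the largest differences in these lists and the CXC chemokines are shown because the interferon signal is known to act through short motifs there. Windows run from 250 bases before to 50 after the start of the gene and are RefSeq sequences of build GRCm38.p6, written 5′ to 3′ on the strand of the gene. Both strands were searched for the core of the interferon-stimulated response element, GAAANNGAA, and for the gamma-activated site, TTCNNNGAA, and capitals mark the matches, which can overlap. Oas3 lies on the minus strand (chr5:120777610-120777909), as do Oas1g (chr5:120887564-120887863) and Cxcl10 (chr5:92348840-92349139), while the first of 2 windows of Ifit2 lies on the plus strand (chr19:34550444-34550743).
Oas3: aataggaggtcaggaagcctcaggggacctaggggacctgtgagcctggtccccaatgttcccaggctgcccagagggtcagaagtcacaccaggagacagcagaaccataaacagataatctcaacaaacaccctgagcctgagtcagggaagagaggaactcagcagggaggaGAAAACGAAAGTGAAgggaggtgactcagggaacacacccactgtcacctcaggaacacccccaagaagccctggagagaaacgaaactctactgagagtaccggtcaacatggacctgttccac
Oas1g: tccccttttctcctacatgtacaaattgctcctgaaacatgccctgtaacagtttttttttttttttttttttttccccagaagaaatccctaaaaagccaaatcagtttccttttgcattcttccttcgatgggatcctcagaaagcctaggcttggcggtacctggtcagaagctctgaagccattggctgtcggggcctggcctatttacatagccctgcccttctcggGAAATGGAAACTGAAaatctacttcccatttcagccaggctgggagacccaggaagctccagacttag
Cxcl10: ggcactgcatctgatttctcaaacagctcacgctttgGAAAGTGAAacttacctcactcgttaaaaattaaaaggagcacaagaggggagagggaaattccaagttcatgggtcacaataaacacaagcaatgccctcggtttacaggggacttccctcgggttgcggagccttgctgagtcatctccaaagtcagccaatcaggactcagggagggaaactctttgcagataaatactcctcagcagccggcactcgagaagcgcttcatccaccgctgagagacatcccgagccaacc
Ifit2: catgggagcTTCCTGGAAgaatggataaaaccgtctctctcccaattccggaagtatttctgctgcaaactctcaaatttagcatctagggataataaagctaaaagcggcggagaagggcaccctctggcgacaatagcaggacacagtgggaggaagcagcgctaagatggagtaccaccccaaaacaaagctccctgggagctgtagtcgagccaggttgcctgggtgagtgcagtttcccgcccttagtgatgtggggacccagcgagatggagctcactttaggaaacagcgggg
In Oas3 and Oas1g overlapping response element cores began 75 and 69 bases, and 18 and 12 bases, before the start. In Cxcl10 a single core began 213 bases before it. The Ifit2 window held a gamma-activated site letter match 241 bases before the start and no response element core in these letters, and the window of Cxcl13, the remaining gene of the 5, held neither. Of the 13 genes of those 3 lists that rose and have a window, 10 held the response element core (76.9%), against 9.76% of all 27025 genes with a window. The antiviral and GTPase lists hold genes known to respond to interferon, so a high share follows from the choice of genes. Members that did not rise were not counted, so the share does not bear on the rise. Among all 128 genes that rose and have a window, those 13 included, 38 held it (29.7%), and among the 46 that fell, 2 did (4.35%). The gamma-activated site was in 3 of those 13 genes (23.1%), in 14 of the 128 (10.9%), in 1 of the 46 (2.17%) and in 9.55% of all genes. A letter match is a description and does not show binding.

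Sensors of foreign nucleic acid rose in part. Of 13 tested members of the sensor list 4 rose, none fell, and the median difference was 1.21. Ddx58, which encodes RIG-I, the cytosolic receptor of viral RNA, lay at 0.78 and 0.75 in wild type against 2.93 and 3.02 with overexpression. This was a difference of 2.21 ± 0.24 (4.63-fold, adjusted p = 0.0129), and the groups were far apart compared with their replicates. Ifih1, which encodes the related receptor MDA5, moved from 1.42 and 1.25 to 3.09 and 3.22 (difference 1.82 ± 0.24, adjusted p = 0.0200). Eif2ak2, the RNA-activated kinase PKR that halts translation, was at -2.93 and -2.37 against -0.41 and 0.14, a rise of 2.51 ± 0.32 (adjusted p = 0.0183). Tlr3, the endosomal receptor of double-stranded RNA, rose by 1.62 ± 0.28 (adjusted p = 0.0363). It passed in 8 of 12 alternatives, with differences down to 0.44. With marked spots kept Dhx58, the third member of the RIG-I family, was called at 2.06 (adjusted p = 0.0112) and Zbp1, a sensor of left-handed nucleic acid, at 1.95 (adjusted p = 0.0118), and 7 of 15 members were called in all. The adaptors and the other endosomal receptors gave no call. Sting1, the adaptor of DNA sensing, was at -0.11 ± 0.24, Tlr7 at 0.41 ± 0.31, Tlr9 at -0.07 ± 0.27, and Mavs, the adaptor of RIG-I, at 0.18 with marked spots kept.

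Among the interferons themselves, their receptors and their signal chain, 1 of 12 tested members rose. Socs1, the inhibitor that is induced by interferon and blocks its receptor kinases, lay at -2.37 and -1.98 in wild type against -0.22 and 0.57 with overexpression (difference 2.74 ± 0.34 on 1 unmarked overexpression array, adjusted p = 0.0222). Irf7, the factor that amplifies interferon production, had marked spots on both overexpression arrays. It was at -2.74 and -2.26 against 0.98 and 1.81, and with marked spots kept was called at 3.89 (adjusted p = 0.006). In that fit Usp18 (1.58) and Irf1 (1.26) were called too, and 5 members of 21 were called in all. Ifnb1, the gene of interferon beta, lay at -3.25 and -3.58 against -2.90 and -2.53 (0.70 ± 0.27, adjusted p = 0.207), and Ifng, the gene of interferon gamma, at -3.45 and -2.80 against -2.53 and -0.43 (1.64 ± 0.63, adjusted p = 0.205). The receptor genes Ifnar1, Ifnar2 and Ifngr1 could be compared only with marked spots kept, where they were at -0.01, 0.42 and -0.18 with no call. Outside the list, 3 probes of the interferon alpha family rose, all not well above background in wild type. They were kept only because overexpression was above background, so the filter is not independent of this direction. Ifna7 was at -8.19 and -8.21 in wild type against -4.30 and -4.19 with overexpression, at least 3.77-fold higher (adjusted p = 0.00329). Ifna5 was 4.84-fold higher by its own dim signal (adjusted p = 0.0138), and Ifnab rose by 2.22 (adjusted p = 0.0287) and was picked out after its value was seen. These genes are close copies of each other, so a probe can take signal from several of them. Ifna7 and Ifna5 each passed in 8 of 11 alternatives, with differences down to 0.26 and 0.12.

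The antiviral effectors with the largest differences came from the OAS and IFIT families. Oas2, a synthetase of the short RNA-like signal that activates RNase L, lay at -2.99 and -3.21 in wild type against -0.13 and -0.02 with overexpression. Its difference of 3.03 ± 0.25 (8.17-fold, adjusted p = 0.00666) passed in every run that left out an array. Oas3, a longer synthetase of the same family, was not well above background in wild type (-6.02 and -5.88) and lay at -2.82 and -1.50 in overexpression. Its difference of 3.79 ± 0.43 (13.8-fold, adjusted p = 0.0138) went down to 1.32 among the alternatives. The probe was kept only because overexpression was above background. Oas1g was at -6.51 and -5.44 against -2.94 and -2.55 (3.23 ± 0.38, adjusted p = 0.0162), and its neighbour copies make it uncertain which Oas1 gene gave the signal. Oas1a, another gene of that cluster, was at 1.83 and 1.84 against 2.88 and 3.02 (1.11 ± 0.24, adjusted p = 0.0642).

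Ifit2, whose protein binds viral RNA and restrains its translation, lay at -2.39 and -2.15 in wild type against 1.63 and 1.91 with overexpression (4.18 ± 0.32, 18.1-fold, adjusted p = 0.0105, with 1 overexpression spot marked). Ifi44, an interferon-induced gene of the cell interior, rose from -3.21 and -3.11 to -0.69 and -0.21 (2.71 ± 0.27, adjusted p = 0.0111). Herc6, the enzyme that joins ISG15 to proteins in mice, moved from -3.49 and -3.69 to -1.30 and -1.03 (2.42, adjusted p = 0.0124). The modifier gene Isg15 itself rose by 1.72 and Ifit3b by 1.93, the latter on 1 unmarked overexpression array. The viperin gene Rsad2 lay at 1.94 and 1.96 against 3.87 and 3.94 (adjusted p = 0.0385, with 1 overexpression spot marked). Other members had marked spots and were compared with those spots kept. Oasl1 was at 3.06, Cmpk2 at 2.23, Ifit3 at 2.06 and Ifit1 at 2.37, each called there. Not every member differed. Ifitm1 and Ifitm3, membrane proteins that hinder virus entry, were at 0.21 ± 0.33 and 0.60 ± 0.26, Ifi27l2a at 0.10 ± 0.39 and Ifi44l at -0.23 ± 0.36, and Bst2, which tethers virus particles, was at 0.58 with marked spots kept and no call. Mx1 and Mx2 had no probe that passed the filter.

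Among the GTPases the largest rise was in Gbp2, from -2.17 and -1.60 to 0.87 and 1.15 (3.04 ± 0.37 on 1 unmarked overexpression array, 8.23-fold, adjusted p = 0.0220). Gbp7 rose by 2.12, also on 1 unmarked overexpression array, Gbp6 by 1.85, Gbp10 by 1.73, Gbp4 by 1.68 and Gbp5 by 1.62. These are near copies in a gene cluster, so single members are uncertain. With marked spots kept, 11 of 15 GTPases were called higher, among them Irgm1 at 1.82 and Tgtp2 at 1.71, and all 15 had both overexpression arrays above both wild type arrays. The p200 family, which holds DNA sensors and regulators of transcription, had 2 members tested and both rose. Their median was 3.60, and 1.92 at its lowest among the alternatives. Without wild type replicate 2 only Ifi214 had a value, 6.08 against a wild type spot not well above background. Ifi214 lay at -8.05 and -5.30 in wild type, with its replicates far apart, and at -2.10 and -1.84 in overexpression (4.71 ± 0.77, adjusted p = 0.0326). Ifi211 moved from -0.77 and -0.49 to 1.90 and 2.09 (2.49 on 1 unmarked wild type array, adjusted p = 0.0237). With marked spots kept 5 of 7 members were called higher, among them Ifi208 at 4.80 and Ifi209 at 4.36.

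Schlafen genes, interferon-induced regulators of leukocyte growth and of RNA, gave 4 rises among 5 tested members. Slfn4 lay at -5.05 and -4.91 in wild type against -1.49 and -0.45 with overexpression (16.1-fold higher, adjusted p = 0.0104), and Slfn3 at -5.35 and -5.31 against -2.11 and -1.29 (3.63 ± 0.32, adjusted p = 0.00933). Slfn1 rose by 2.85 and Slfn8 by 2.01, the latter on 1 unmarked overexpression array. Slfn8 passed in 6 of 11 alternatives, with differences down to 0.03. Slfn5 was at 1.68 (adjusted p = 0.0582). The fit with marked spots kept called 6 of 7 members higher, Slfn5 (adjusted p = 0.0493) and Slfn2 (1.43, adjusted p = 0.0370) among them, and Slfn9 was at -0.37 with no call.

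Few genes that show antigen to T cells were called. In the MHC class I list 2 of 6 tested members rose. Nlrc5, the factor that switches on class I genes, was at 0.44 and 0.75 against 2.26 and 2.63 (2.04 ± 0.33 on 1 unmarked overexpression array, adjusted p = 0.0432), but its second probe went the other way and the mean of both probes was -0.72 with no call. Tap1, the peptide transporter, moved from -2.16 and -2.04 to -0.75 and 0.01 (1.72 ± 0.32, adjusted p = 0.0463). The class I heavy chain H2-K1 was at 0.53 with no call. With marked spots kept neither the class I heavy chains nor B2m were called, from -0.19 in H2-Q4 to 0.39 in H2-M3. No MHC class II gene was called, and the 3 tested lay between -0.45 and -0.20. Of 10 tested ligands and cytokines that act on T cells 3 rose. Cd274, which encodes the checkpoint ligand PD-L1, lay at -1.08 and -0.75 against 0.85 and 1.52 (2.44 ± 0.33 on 1 unmarked overexpression array, adjusted p = 0.0285). With marked spots kept Cd274 was at 2.11. Tnfsf10, the death ligand TRAIL, lay at -1.70 and -1.68 against 0.20 and 0.14 (1.86 ± 0.24, adjusted p = 0.0185), and Il15, which sustains NK and memory T cells, rose by 1.80 (adjusted p = 0.0402).

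Some inflammatory genes rose with them. Of 12 tested cytokines and enzymes 4 rose and all 12 differences were positive (median 0.91). Acod1, the enzyme that makes itaconate in macrophages, moved from 0.39 and 0.77 to 2.29 and 2.93 (2.50 ± 0.34 on 1 unmarked overexpression array, adjusted p = 0.0273). With marked spots kept Acod1 was at 2.03. Nos2, the inducible nitric oxide synthase, moved from -1.67 and -1.84 to -0.09 and 0.43 (1.96 ± 0.28, adjusted p = 0.0226), and Tnf from -1.68 and -1.69 to -0.06 and -0.08 (1.54 ± 0.24, adjusted p = 0.0287). Osm, the cytokine oncostatin M, rose by 1.51 (adjusted p = 0.0366). It passed in 6 of 12 alternatives, with differences down to 0.64. Il1b was at 0.68 ± 0.27, Il6 at 0.46 ± 0.36 and Ptgs2 at 0.91 ± 0.31, none called. Keeping marked spots gave 5 calls of 16, Il1a at 1.55 among them. Il10, the cytokine that restrains macrophages, was not well above background in wild type (-7.78 and -7.12) and lay at -2.70 and -4.31 in overexpression, at least 6.28-fold higher (adjusted p = 0.0200). It was the only call among 9 tested genes of its axis and of alternative activation. Its probe was kept only because overexpression was above background. Il10 passed in 8 of 11 alternatives, with differences down to 0.52. Cfb, factor B of the alternative complement pathway, was the only call among 12 complement genes. It moved from 0.08 and -0.09 to 2.17 and 2.62 (2.49 ± 0.35 on 1 unmarked wild type array, adjusted p = 0.0295). C1qb, C1qc and C4b lay within 0.1 of 0, while the 12 ran from -1.48 to 2.49, 6 positive and 6 negative.

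Among 10 tested CXC chemokines 2 rose. Cxcl13, which attracts B cells, lay at -4.99 and -5.13 in wild type against -1.57 and -1.32 with overexpression (3.62 ± 0.25, 12.3-fold, adjusted p = 0.00387). Cxcl10, which attracts activated T cells through CXCR3, lay at -1.07 and 0.28 against 1.95 and 2.37 (3.45 ± 0.39 on 1 unmarked array per group, adjusted p = 0.0285). The median of the list was 0.21, and its sign turned without wild type replicate 1 or overexpression replicate 2. Cxcl9, another ligand of CXCR3, was at 0.13 ± 0.29. Of 12 CXC genes measured when marked spots were kept, 3 were called, with Cxcl2, which draws neutrophils, at 1.27. No CC chemokine was called among 6 tested. Ccl2, the monocyte attractant, lay at 3.71 and 3.50 against 4.45 and 4.36 (0.89 ± 0.24, adjusted p = 0.106), and Ccl7 and Ccl8 were called only with marked spots kept, both at 1.35 (2 calls of 12). The chemokine receptor Cxcr1, found on neutrophils, rose by 1.54 (adjusted p = 0.0493), 1 call of 12. Ackr1, a scavenging chemokine receptor of venules and red cells, was called lower with marked spots kept, at -1.59 (adjusted p = 0.0457), so that list of 14 held 1 call each way.

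Few genes of the pathways upstream of cytokine genes were called. Tlr4, the receptor of bacterial lipopolysaccharide, moved from -2.20 and -2.24 to -0.89 and -0.94 (1.30 ± 0.24, adjusted p = 0.0449). It was the 1 call of 13 Toll-like receptors and adaptors, and passed in 5 of 12 alternatives, with differences down to 0.93. With marked spots kept 2 of 18 were called, and the adaptor Myd88 was at 1.32. Rel, a subunit of NF-kappaB, rose by 1.53 (adjusted p = 0.0326), 1 of 13 in its list. Rel passed in 9 of 12 alternatives, with differences down to 0.24. The inflammasome and lytic cell death list had 2 calls of 13, and 3 of 16 with marked spots kept. Mlkl, the executor of necroptosis, moved from 0.04 and 0.02 to 1.48 and 1.75 (1.59 ± 0.25, adjusted p = 0.0289), and Nlrp1b, an inflammasome sensor, rose by 1.87 on 1 unmarked overexpression array but was at 1.39 (adjusted p = 0.0822) with marked spots kept. The other probe of Nlrp1b went the opposite way, and the gene passed in 3 of 11 alternatives, with differences down to 0.40. Cybb, the catalytic subunit of the phagocyte oxidase, rose by 1.88 (1 call of 5), while its partner Cyba was at 0.05 ± 0.39. Marco, a scavenger receptor, rose by 1.51 (1 call of 11 clearance genes, or 2 of 18 with marked spots kept). Cyp27a1, which makes a cholesterol-derived ligand of LXR, rose by 1.79 (1 call of 11 lipid genes). Among the alternatives the differences of Marco and Cyp27a1 went down to 0.55 and 0.25.

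The genes that mark microglia in the healthy brain gave no call. Of 7 tested homeostatic microglia genes none was called, and their differences ran from -0.14 to 0.48 around a median of -0.03 whose sign turned in 7 other settings. Tmem119 was at 3.45 and 3.49 against 3.89 and 3.75 and P2ry12, the nucleotide receptor of resting microglia, at 2.17 and 2.62 against 2.69 and 2.50. Disease-associated microglia genes, a set induced around damaged tissue, also gave no call among 8 tested. Their median was 0.38, or -0.004 with marked spots kept. The Axl receptor, which takes up apoptotic cells, was at 1.38 ± 0.31 (adjusted p = 0.0711) and Trem2 at -0.02 ± 0.31. There was no call among 8 lysosome genes, 19 immediate early genes, 20 mitosis genes, 14 replication genes, 11 glycolysis genes, 8 respiratory chain genes, 11 ribosomal protein genes, 11 purinergic genes or 8 matrix metalloproteinases and inhibitors. Of 15 metalloproteinases and inhibitors 1 was called with marked spots kept, the collagenase gene Mmp13 at 1.16 (adjusted p = 0.0468). The immediate early list stood at a median of 0.57, with Atf3 at 1.28 ± 0.33 (adjusted p = 0.0997).

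Genes that ZEB1 is known to repress, chiefly cell adhesion and polarity genes of epithelia, gave 1 fall among 22 tested members of a list that also holds the ZEB and SNAIL factors. Their median was -0.17, close to the -0.11 of all genes. Pard6b, a polarity protein, lay at -5.86 and -5.89 in wild type and was not well above background in overexpression (-7.65 and -8.39, adjusted p = 0.0234), too near background in both groups for a fold. Cdh1, which encodes E-cadherin, was at -0.76 ± 0.39, Epcam at 0.92 ± 0.25 and Cldn7 at -0.30 ± 0.28, none called. Zeb2, the close relative of ZEB1, lay at -0.89 and -0.55 against 0.34 and 0.49, and was at 1.13 with marked spots kept (adjusted p = 0.0587). In the TGF-beta pathway, which acts with ZEB1 in other tissues, Itgav, an integrin subunit that activates latent TGF-beta, rose by 1.71 (adjusted p = 0.0352), 1 call of 18.

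**Figure D2:**
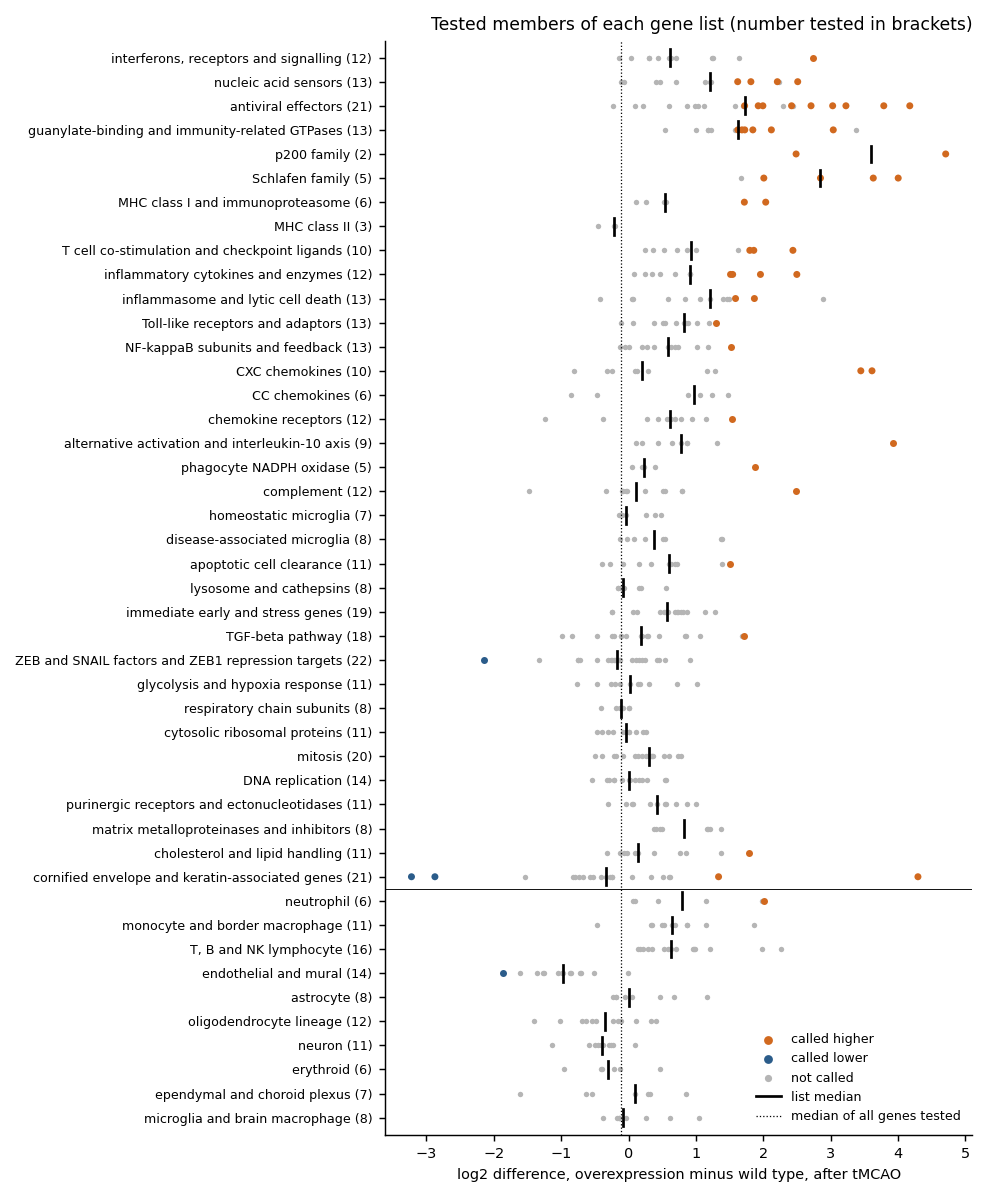
Each row is a gene list and each point a tested member, with the difference of overexpression minus wild type on the x axis (log2). Orange and blue points are called higher and lower, black bars are list medians and the dotted line is the median of all genes tested. The antiviral, GTPase, p200 and Schlafen lists have medians from 1.62 to 3.60, the last from 2 tested p200 genes, and the endothelial and mural list, at -0.98, has the lowest.

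Outside the lists, the 12 largest rises with unmarked spots above background on all 4 arrays added 6 genes. Cd69, the early activation antigen of lymphocytes, which other leukocytes and interferon also bring up, lay at -3.83 and -4.10 in wild type against -0.12 and 0.18 with overexpression (3.99 ± 0.26, 15.9-fold, adjusted p = 0.00341). Apol9b, an interferon-responsive apolipoprotein L gene, moved from -1.62 and -1.26 to 1.29 and 1.11 (2.64, adjusted p = 0.0107). Zbtb32, a transcriptional repressor of lymphoid cells, rose by 2.64, Utp15, a ribosome assembly factor, by 2.72, Tcstv3, a gene of early embryos, by 3.21, and Trdn, triadin of muscle, by 2.90 with its overexpression replicates at -1.39 and -3.09. Steap4, a metalloreductase, was at least 4.80-fold higher but passed in 8 of 11 alternatives, with differences down to 0.20.

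The falls were fewer than the rises. Of the 12 with the largest differences above background on all 4 arrays, Med12l, a kinase-module subunit of the Mediator complex, went furthest, from -1.09 and -1.07 to -3.34 and -4.02 (-2.60 ± 0.30, adjusted p = 0.0144). Tbata, a gene of thymus and testis, moved from 0.40 and -0.39 to -2.17 and -1.89 (-2.04, adjusted p = 0.0309). Kcnk3, a potassium channel of smooth muscle and neurons, moved from a mean of -0.95 to -3.08 and -2.69 (-1.93 ± 0.26, adjusted p = 0.0200), and Gpr20, an orphan receptor, from -2.29 and -2.48 to -4.30 and -4.25 (-1.89, adjusted p = 0.0185). Grb7 fell by 1.86, Ldoc1 by 1.84, Svep1, an extracellular matrix protein, by 1.77, Abcc12 by 1.75 and Sftpc, surfactant protein C of lung, by 1.71. In 4 further falls overexpression was not well above background. Hbb-y, an embryonic globin, was 4.99-fold lower by its own dim signal. Afm, the plasma protein afamin, was at least 3.51-fold lower, Pcdh12, an endothelial protocadherin, at least 3.18-fold lower and Spata20 at least 2.67-fold lower. In the list of skin and hair genes, 2 members fell and 2 rose among 21. Cnfn moved from 1.08 and 0.40 to -2.47 and -2.48 and Krtap5-4 from -2.93 and -2.97 to -7.04 and -5.30, whereas S100a7l2 was at least 4.41-fold higher and Dmkn rose by 1.34. S100a7l2 was kept only because overexpression was above background, and it passed in 8 of 11 alternatives, with differences down to 0.37.

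Markers of vessel cells had negative differences. All 14 tested endothelial and mural markers were negative, with a median of -0.98, and 1 was called. Myh11, the myosin heavy chain of vascular smooth muscle, lay at -2.06 and -2.31 in wild type against -4.05 on both overexpression arrays (-1.86 ± 0.24, 3.64-fold lower, adjusted p = 0.0196). With marked spots kept 5 of 20 were called, all lower, with Tie1, a receptor of endothelium, at -2.11 and Cldn5, its tight junction claudin, at -1.52. Cldn5 lay at 2.69 and 2.89 in wild type against 1.05 and 1.49 with overexpression, without overlap. Both overexpression arrays were below both wild type arrays in 17 of 20 markers, an order found in 33.8% of all genes, and the median stayed between -1.11 and -0.80 over the alternatives and left-out arrays run. In bulk RNA, fewer cells of a type and less RNA per cell cannot be told apart.

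**Figure D3:**
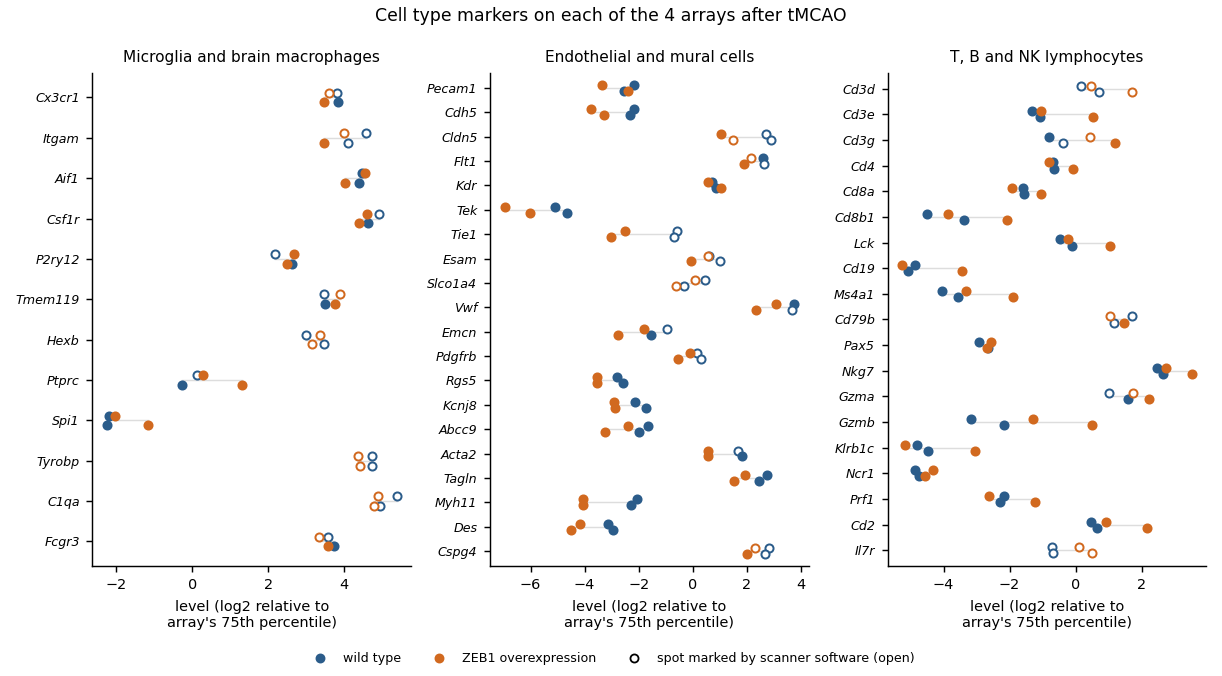
The levels of microglia, vessel cell and lymphocyte markers on each array are plotted on the x axis (log2 relative to the 75th percentile), blue for wild type and orange for overexpression, with open circles where the spot was marked. Orange points lie left of blue ones in 17 of 20 vessel cell markers, an order found in 33.8% of all genes. In the lymphocyte panel both orange points lie right of both blue ones in 9 of 19 genes, an order found in 21.6% of all genes.

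Markers of microglia and of other cells were on the same arrays and moved with the groups to different degrees. The defining markers of microglia and brain macrophages, such as Cx3cr1, Aif1 and Csf1r, were well above background on the arrays of both genotypes. Their summed signal was 7.61 and 7.47 in wild type and 7.40 and 7.24 in overexpression (log2 relative to the 75th percentile), and none of 8 tested was called. Both overexpression arrays were below both wild type arrays in 6 of 12 markers, an order found in 33.8% of all genes. They were above both in 3 of 12, an order found in 21.6% of all genes. Lymphocyte markers were positive in 16 of 16 tested with none called (median 0.63). Their summed signal was 4.10 and 4.26 in wild type and 4.39 and 5.25 in overexpression, so replicate 2 stood apart, and their median was 0.12 without that array and 1.43 without overexpression replicate 1. Up to 7 of them were called when an array was left out. Neutrophil markers had 1 call among 6, Elane, an enzyme of granulocyte precursors, at -1.57 and -2.14 against -0.29 and 0.62 (2.01 ± 0.37, adjusted p = 0.0463). Their summed signals were 6.67 and 6.47 against 6.81 and 6.82, and 2 of 13 were called with marked spots kept. The monocyte and border macrophage list summed to 5.57 and 5.44 against 5.90 and 5.94 with no call among 11. The vessel cell list summed to 5.67 and 5.64 against 4.96 and 4.66. Neuron and oligodendrocyte markers had medians of -0.39 and -0.36 with no call. Without overexpression replicate 2 the neuron median was -0.07, and that of all genes in the same fit was -0.06. Ependymal and choroid plexus markers had no call of 7, and 1 of 12, Tmem212, was called lower with marked spots kept. Ly6g, Ly6c2, Trac, Cd79a and Ighm had no probe that passed the filter. The part of these cells in the interferon, cytokine and vessel results was not tested.

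The same genotypes were also compared before tMCAO, on a slide of 8 arrays of another design that was scaled separately. Of 19355 genes with the same probe on both slides, 13214 had an unmarked spot in each genotype at both times and were tested. Of these, 3 differed before tMCAO (0.0227%). The 3 were AK084355, higher by 1.52, Gm5089, higher by 2.51, and Galnt3, a starter enzyme of mucin-type glycans, lower by 2.89, and 1519 genes had an unadjusted p under 0.05. The count was 9 without wild type replicate 2 before tMCAO, 31 and 5 without overexpression replicate 1 or 2 before it, and 1 whichever array taken after it was left out. The antiviral members had a median difference of 0.03 before tMCAO over 14 genes, and the GTPases 0.04 over 7. The Schlafen members had a median of 1.40 over 5, but 4 of them, Slfn1, Slfn3, Slfn4 and Slfn5, were not well above background in either genotype then. Of the 360 genes called after tMCAO that have a value before it, 196 (54.4%) had the same sign at both times.

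A test of the difference between these differences called 66 of 13214 genes (0.499%), 31 higher and 35 lower. Of these 42 were also called after tMCAO itself, 22 that rose and 20 that fell. Slide and time cannot be told apart in these values, although a shift that both genotypes share on a slide cancels. The arrays before tMCAO also differed by genotype in quality, with 23.7% and 18.2% of spots marked in overexpression against 3.29% and 1.26% in wild type, and 62.7% and 60.4% of probes well above background against 73.3% and 70.5%. Genotype followed slide row there too, and genes dim in both genotypes before tMCAO had a median difference of 0.72 then, against 0.04 in the others. The part of these differences in the calls was not tested. Ifit2 stood at 4.59 ± 0.36 (adjusted p = 0.00909). Before tMCAO it lay at -2.05 and -1.95 in wild type against -2.49 and -2.34 with overexpression, so its genotype difference was -0.42 then and 4.18 after. Oas2 followed the same pattern, with -0.42 before and 3.03 after (3.45 ± 0.32, adjusted p = 0.00909), though it was not well above background in overexpression before tMCAO. Ifna7 went from 0.13 to 3.95 (3.82 ± 0.31, adjusted p = 0.00575). It was not well above background in wild type after tMCAO, so the size of this change rests on dim signal. Nos2 went from 0.25 to 1.96 (1.71 ± 0.28, adjusted p = 0.0496). Galnt3 went from -2.89 to 0.71 (3.60 ± 0.28, adjusted p = 0.00575), was not well above background in overexpression before tMCAO, and was not called after it (adjusted p = 0.163).

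Among the genes with negative values, Med12l went from 0.81 to -2.60 (-3.41 ± 0.53, adjusted p = 0.0496) and Kcnk3 from 0.24 to -1.93 (-2.17 ± 0.28, adjusted p = 0.0323). Gm5089 went from 2.51 to -1.18 (-3.70, adjusted p = 0.0128). Afm, Olfr429 and Psg27 had values from -4.43 to -3.63, but both genotypes were not well above background before tMCAO in these 3 genes, as in 17 of the 35 negative calls and 2 of the 31 positive ones. With only genes above background before tMCAO too, a filter chosen after the data were seen, 95 genes were called, 54 higher and 41 lower. Of the antiviral members 2 were called in this test, and other interferon-induced genes missed the threshold, with Gbp2 at 2.92 (adjusted p = 0.0645), Ifi44 at 3.36 (adjusted p = 0.0698) and Cxcl10 at 4.61 (adjusted p = 0.111). Acod1 differed by 2.84 before tMCAO (adjusted p = 0.141) and by 2.50 after it, so its change between times was -0.34 ± 0.86 (adjusted p = 0.860). The count of 66 fell to 0 without wild type replicate 1 or replicate 2 after tMCAO, to 14 and 3 without wild type replicate 1 or 2 before it, and to 7 without overexpression replicate 2 before it, and was 115 without overexpression replicate 2 after tMCAO and 42 without overexpression replicate 1 after it.

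**Figure D4:**
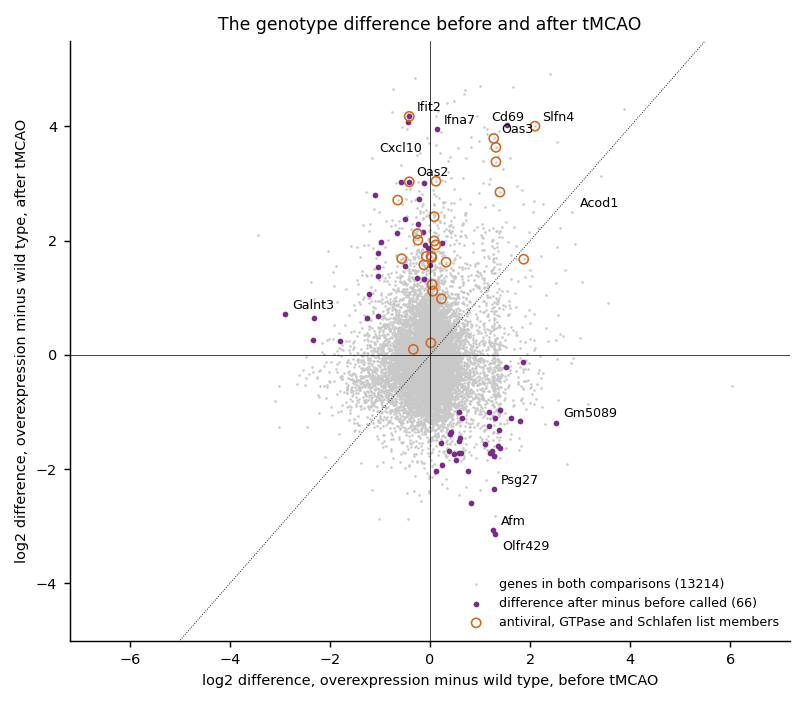
Each point is a gene measured with the same probe on both slides, with an unmarked spot in each genotype at both times. The difference of overexpression minus wild type before tMCAO is on the x axis and that after tMCAO on the y axis (both log2). Purple points are the 66 genes whose difference changed, open orange circles mark antiviral, GTPase and Schlafen members, and the dotted line marks equal differences. Many circles stand near 0 on the x axis and above 1 on the y axis, as Ifit2 does at -0.42 and 4.18, while Acod1 lies close to the dotted line.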

How the data were processed

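RNA was labelled with 1 dye and hybridised to Agilent arrays, 1 per sample. The deposited scanner files hold processed signal intensity per probe, already background-corrected by Agilent Feature Extraction (11.5.1.1 per the file headers, 9.1 per the submitters' processing notes). The authors' deposited value table holds log2 values of the same arrays, with column medians from -3.156 to -3.052 for the 4 arrays. They correlated with the scanner values at 0.99999 or more, and no source used here gives their centring. Array number limits the precision, at 2 samples per group.

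Signals were taken as log2 minus the 75th percentile of each array. Control spots and marked spots were left out. Probes well above background on both arrays of at least 1 group were kept, 39334 of 55681, and the brightest stood for each of 27935 genes. Accessions were named through RefSeq (GRCm38.p6), which gave 26762 probes a name. Log2 differences were tested with limma 3.58.1 (lmFit and eBayes, R 4.3.3) and Benjamini-Hochberg adjustment over all genes tested, called at an adjusted p under 0.05. The fit after tMCAO used 4 arrays, and values before tMCAO and between times used all 12 arrays in 6 groups, each slide scaled separately. Where a group was not well above background on either array, "at least N-fold" sets the brighter group's mean against the higher of the lowest signal well above background and the dim probe's own signal, per array. Such bounds hold for the main processing only, and the differences were smaller in some alternatives. In Oas3, Ifna5 and Hbb-y the dim probe's own signal was the higher on both arrays, so the plain fold is given there. Tables were handled in Python 3.11.15 and the models were tested on simulated data.

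The genes named are Zeb1, the 12 largest rises and falls measured on all 4 arrays, the 4 largest bounds each way, up to 5 called members per list (otherwise the 2 with the smallest p), and the 4 largest changes between times each way. Further list members are named as examples, chosen after their values were seen. The members and the 45 gene lists were chosen with earlier results of these data known. Alternatives were other background corrections, scalings, filters, probe rules, a variance trend, the replicate block, the authors' table and leaving out arrays. Some results are not reported here.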

Additional observations from a re-analysis of the deposited data

Results flagged for a closer look

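The genotype difference changed between times in 66 genes by limma's test of the difference itself. Among the genes named, Ifit2 stood at 4.59, Ifna7 at 3.82, Galnt3 at 3.60, Oas2 at 3.45, Utp15 at 2.95 and Nos2 at 1.71 (log2, after minus before tMCAO). Galnt3 and Oas2 were not well above background in overexpression before tMCAO, and Ifna7 was not in wild type after it. The negative values were -3.70 in Gm5089, -3.41 in Med12l, -2.37 in Cabp2, -2.17 in Kcnk3 and -2.15 in Tbata. Olfr429 (-4.43), Afm (-4.33) and Psg27 (-3.63) were not well above background in either genotype before tMCAO. The 2 slides were scaled separately.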

How the results depend on the processing

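The count of 510 genes after tMCAO was 895 with marked spots kept, 334 with normexp on the median signals (chosen after seeing the data, since there was no mean signal to use, and with a median over all genes of -0.27), 312 with quantile normalization, 332 with scaling to the median of probes above background, 777 with the authors' value table and 895 with a variance trend. It was 0 with no filter on dim probes and 0 with the mean of all probes, and ranged from 54 to 1079 when an array was left out, where the share of rises ranged from 55.3% to 92.6%. Of the 510, 211 were also called with normexp and 312 with quantile normalization.

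The count of 3 before tMCAO was 1 with marked spots kept, 31 with quantile normalization, 1 with the authors' table, 0 in the fit of 8 arrays (1656 genes at an unadjusted p under 0.05 in limma), 14 with genes above background before tMCAO too, and 1 to 31 without single arrays. The count of 66 between times was 102 with marked spots kept, 105 with quantile normalization (57.1% of them higher, against 47.0%), 16 in the fit of 8 arrays, and 0 to 115 without single arrays. With genes on unmarked spots of both arrays 35.7% were higher, and 56.8% with genes above background before tMCAO too.

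The labels give no pairing of the replicates, and deviations of same-numbered samples correlated at 0.0859. With 2 arrays per group this is 1 correlation, which cannot tell whether same-numbered samples shared a preparation. With the replicate block 461 genes were called after tMCAO, 0 before it (1524 at an unadjusted p under 0.05 in limma) and 9 between times.

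Nlrc5 reversed to -0.72 (adjusted p = 0.793) with the mean of all probes. No cause was tested. The named genes called after tMCAO kept their call in 632 of 882 alternative fits and in 158 of 290 fits without an array. The median changed sign in some fit for the CXC chemokine, homeostatic and disease-associated microglia, lysosome, glycolysis, ribosomal, replication, astrocyte, ependymal and microglia lists.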

Other observations

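Genes outside the lists, chosen after their values were seen, rose with the interferon-induced genes. Samd9l, which restrains poxviruses, rose by 2.57, Zc3hav1, the zinc-finger antiviral protein, by 1.58, Parp12 by 1.87 and Epsti1 by 2.15. A few further genes, picked the same way, rose as well, while the fixed lists gave 1 call of 6 neutrophil markers and no call among 16 lymphocyte markers. Ms4a3, a marker of granulocyte and monocyte progenitors, lay at 0.09 and -0.46 in wild type against 1.48 and 1.96 with overexpression. Cd177, a neutrophil surface protein, lay at -3.20 on both wild type arrays and at -1.78 and -1.49 in overexpression. Mzb1, a chaperone of antibody-secreting cells, lay at -1.43 and -1.35 against 0.36 and 0.83. Among vessel genes, Foxs1, a factor of mural cells, lay at -1.65 and -1.91 against -3.24 and -3.61. The part of these cell types in the results was not tested.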
